A study of Homo sapiens with 3 samples.

Results

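PDE4D, PDE4B, PDE3B and PDE10A, genes of the cyclic nucleotide phosphodiesterase family, were followed among RNA fragments crosslinked to CSTF2tau. Their members are the listed peaks whose name begins with one of 4 Ensembl gene IDs, ENSG00000113448 (PDE4D), ENSG00000184588 (PDE4B), ENSG00000152270 (PDE3B) and ENSG00000112541 (PDE10A). In all, 315 of 202310 listed peaks and 4 of 13356 gene IDs belong to this set. The genes were selected on measured values, with earlier results of these data known: their listed reads and, for PDE4D, the crowding of reads towards its 3' end. The levels and end shares below are therefore descriptions, with no test.

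The data come from sCLIP, in which proteins are fixed to their RNA by ultraviolet light inside the cells, and RNA pieces pulled down with an antibody are sequenced. The antibody was directed against CSTF2tau (also named CSTF2T), an RNA-contacting subunit of the cleavage stimulation factor. This factor takes part in making the 3' ends of messenger RNAs. All 3 samples are biological replicates of wild-type BE(2)-C cells, a clonal human neuroblastoma line, so there is 1 group and no treated group. Libraries of input RNA or of a control antibody were not used here. Gene IDs could not be paired with symbols beyond the 4 genes, so the neuroblastoma markers were not checked.

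Phosphodiesterases break the phosphate ring of cAMP and cGMP and so end the signals that these messengers carry to protein kinases and ion channels. PDE4D and PDE4B belong to the cAMP-specific family that is the target of rolipram, and both are made as long and short forms from several promoters. The short forms of PDE4D begin in the 3' part of the gene. PDE3B is a cAMP-splitting enzyme that cGMP inhibits and that acts below the insulin receptor in fat and liver cells. PDE10A splits both messengers and is best known from the medium spiny neurons of the striatum.

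Since the positions of PDE4D reads raise the question of which starts they lie behind, 3 of its RefSeq starts are shown: the outermost at the 5' side and the pair nearest the 3' side. Each run holds the 250 bases before the start in lower case and the 50 bases after it in capitals. Sequences and positions are those of RefSeq on GRCh38.p14, minus strand, at chr5:60496237-60496536 for start 1, chr5:59039427-59039726 for start 7 and chr5:58999849-59000148 for start 8.
PDE4D start 1: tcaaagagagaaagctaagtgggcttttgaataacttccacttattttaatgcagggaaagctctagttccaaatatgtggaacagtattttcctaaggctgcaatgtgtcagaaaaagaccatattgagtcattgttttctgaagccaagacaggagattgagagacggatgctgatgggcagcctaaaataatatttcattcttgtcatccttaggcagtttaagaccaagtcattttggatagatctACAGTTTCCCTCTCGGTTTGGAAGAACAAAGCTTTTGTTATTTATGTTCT
PDE4D start 7: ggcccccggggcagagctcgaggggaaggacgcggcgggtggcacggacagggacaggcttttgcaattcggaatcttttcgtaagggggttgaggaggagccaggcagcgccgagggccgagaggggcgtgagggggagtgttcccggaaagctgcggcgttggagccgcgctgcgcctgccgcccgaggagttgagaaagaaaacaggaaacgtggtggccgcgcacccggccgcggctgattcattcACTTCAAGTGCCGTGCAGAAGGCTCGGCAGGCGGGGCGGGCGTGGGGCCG
PDE4D start 8: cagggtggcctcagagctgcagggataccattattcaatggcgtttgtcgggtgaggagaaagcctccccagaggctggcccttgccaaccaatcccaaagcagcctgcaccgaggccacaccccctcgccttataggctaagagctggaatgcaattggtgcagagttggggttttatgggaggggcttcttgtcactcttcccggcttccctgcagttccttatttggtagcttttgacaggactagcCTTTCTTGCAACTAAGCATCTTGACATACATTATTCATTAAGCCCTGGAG

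RefSeq listed 8 starts for PDE4D, 6 for PDE4B and 2 for PDE10A in the table used here. No start was taken for PDE3B, so the 16 starts below leave that gene out. The PDE4D starts were spread over 1496 kb, with gaps of 124, 479, 306, 1.12, 230, 317 and 39.6 kb from the 5' to the 3' side. Start 7 was the richest of the 8 in C and G, at 68.3% with 32 CpG pairs, against 52.7% and 5 pairs at start 8 and 37.7% and 2 pairs at start 1. The medians over all 35116 RefSeq promoters were 58.7% and 14 pairs. The cAMP response element TGACGTCA, searched on both strands, was in 0 of the 16 starts and in 1.85% of all promoters. Its shorter form TGACG, which the full element contains, was in 1 of the 16 starts (PDE4D start 4) and in 24.6% of all promoters. The peaks are on hg19 and these starts on GRCh38, so distances were taken within each build and no position was carried from one build to the other.

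PDE4D, PDE4B and PDE3B had peaks in every replicate, most of them small and fewest in replicate 2, and PDE10A had almost none. In replicates 1, 2 and 3 there were 105203, 18346 and 78761 listed peaks, which together held 736059, 108434 and 387784 reads. These totals cover reads inside listed peaks only and are not the sequencing depth. Like the peak count of the whole series above, they count a peak once under each gene ID that lists it. The read number of a peak is the last number of its name, and no source states what it counts. Levels below are reads per 1000000 listed reads (RPM), with exact 95% Clopper-Pearson intervals that cover counting error only. Without peaks under several gene IDs, the mean level was 622 instead of 579 RPM for PDE4D and 555 instead of 516 for PDE4B. For PDE3B it was 258 instead of 240, and for PDE10A 1.91 instead of 3.62.

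PDE4D had 406 reads in 63 peaks in replicate 1, 23 reads in 4 peaks in replicate 2 and 378 reads in 88 peaks in replicate 3. Its level was 552 RPM (interval 499 to 608) in replicate 1, 212 (134 to 318) in replicate 2 and 975 (879 to 1078) in replicate 3. The mean was 579 ± 382 RPM (SD, n = 3), rank 238 of 13356 gene IDs, and the intervals of the 3 replicates did not overlap. Replicate 3 was 4.60-fold above replicate 2, and without replicate 3 the mean was 382 RPM.

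PDE4B had 244 reads in 39 peaks, 64 reads in 14 peaks and 243 reads in 61 peaks in replicates 1, 2 and 3. The levels were 331 RPM (291 to 376), 590 (455 to 754) and 627 (550 to 711), a mean of 516 ± 161 (SD, n = 3) and rank 274. Replicates 2 and 3 overlapped in their intervals and replicate 1 lay below both, with 1.89-fold between the highest and the lowest.

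PDE3B had 114 reads in 23 peaks, 42 reads in 4 peaks and 69 reads in 17 peaks in replicates 1, 2 and 3. Its levels were 155 RPM (128 to 186), 387 (279 to 524) and 178 (138 to 225), with a mean of 240 ± 128 (SD, n = 3) and rank 792. The high value of replicate 2 rested on a single peak, which held 28 of its 42 reads, and without that peak its level was 129 RPM and the mean of the 3 replicates 154 RPM. Without replicate 2 the mean was 166 RPM.

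PDE10A had 8 reads in 2 peaks in replicate 1, or 10.9 RPM (4.69 to 21.4), and no listed peak in replicates 2 and 3. Since no listed peak had fewer than 3 reads, a gene with no listed peak may still have had reads, and no upper limit is given for it. The median over all gene IDs was 19.5 RPM in mean level, so PDE10A lay below it and the other 3 genes well above.

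**Figure D1:**
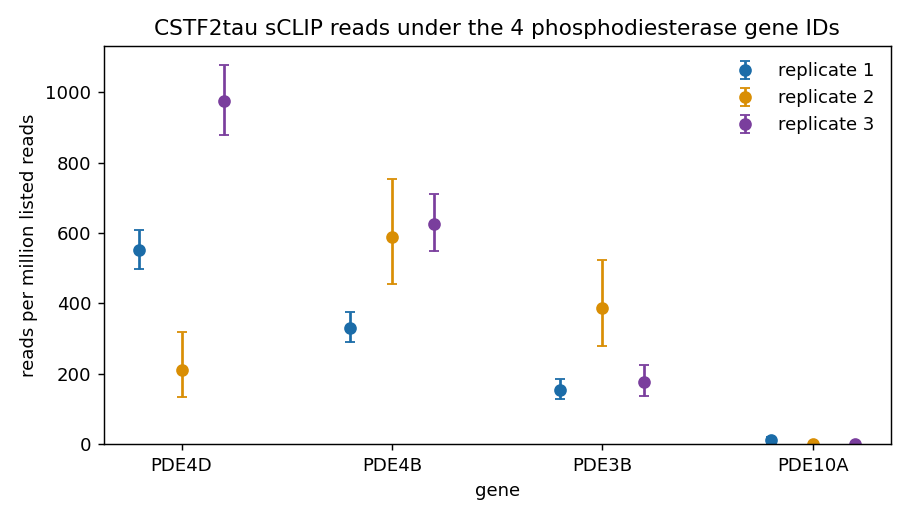
RPM (vertical axis) under each of the 4 gene IDs, with 1 point per replicate and bars for exact 95% intervals of counting error where a peak was listed. PDE4D is spread from 212 to 975 RPM, PDE4B from 331 to 627, PDE3B from 155 to 387, and PDE10A has reads in replicate 1 only.

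Set against the length over which peaks were listed, the order of the genes changed. PDE4D peaks ran over 1551 kb, at chr5:58265216-59815907 on the minus strand of hg19, the span ranked 4 by length among 7095 gene IDs with at least 5 loci. PDE4B peaks ran over 362 kb at chr1:66460074-66822375 (+), and PDE3B peaks over 223 kb at chr11:14668739-14892008 (+). In RPM per 100 kb of listed span, PDE4D had 35.6, 13.7 and 62.9 in replicates 1, 2 and 3 and averaged 37.4 ± 24.6 (SD, n = 3). PDE4B had 91.5, 163 and 173, a mean of 142 ± 44.4, and PDE3B had 69.4, 173 and 79.7, a mean of 108 ± 57.4. PDE4B and PDE3B overlapped in these values, while PDE4D was below both in each replicate. Over the 7095 gene IDs the median was 135 on the same scale, and PDE4D, PDE4B and PDE3B ranked 6177, 3402 and 4184.

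The listed span of PDE4B, 362 kb on hg19, was shorter than the 562 kb between its outermost RefSeq starts on GRCh38. For PDE4D, the listed span of 1551 kb was slightly longer than the 1496 kb between its outermost starts. No other gene ID had a peak on either strand inside the PDE4D, PDE4B or PDE3B spans, and none of their peaks was listed under a second ID.

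Peaks were small in all 3 genes. The median was 4, 4.5 and 4 reads per PDE4D peak in replicates 1, 2 and 3, 4, 3.5 and 3 reads per PDE4B peak, and 4, 5.5 and 4 reads per PDE3B peak. The lowest number of reads in any listed peak was 3, and 41 of 88 PDE4D peaks and 37 of 61 PDE4B peaks in replicate 3 had just that many. In replicate 1 these were 23 of 63 and 10 of 39 peaks.

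PDE4D reads crowded towards the 3' end of the span in replicates 1 and 2, and lay over a far longer stretch in replicate 3. In replicate 1 the last 10% of the span held 370 of 406 reads, or 91.1% (interval 87.9 to 93.7%). In replicate 2 it held 20 of 23, or 87.0% (66.4 to 97.2%). In replicate 3 it held 98 of 378, or 25.9% (21.6 to 30.7%). The first 10% held 3, 0 and 7 reads. With 0.5 reads added to each end, the log2 ratio of 3' over 5' reads was 6.73, 5.36 and 3.72, a mean of 5.27 ± 1.51 (SD, n = 3).

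All 3 replicates thus had more reads at the 3' end, as did 26.6% of 2435 gene IDs with reads at the ends in every replicate and at least 10 in all, but PDE4D was chosen for this. Replicate 3 differed from replicate 1 in how the reads were laid out. Cut into 10 equal parts from 5' to 3', PDE4D had 3, 3, 0, 3, 0, 14, 6, 7, 0 and 370 reads in replicate 1. In replicate 3 the parts held 7, 0, 4, 5, 22, 63, 45, 69, 65 and 98 reads. The last 50% of the span held 97.8% of the reads in replicate 1, 87.0% in replicate 2 and 89.9% in replicate 3. The 3 replicates were therefore close in that coarse share and apart within it.

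In replicate 1 the reads formed a dense run with a sharp 5' border. Peaks followed each other without a gap over 15 kb from chr5:58266896 to chr5:58334533, over 67.6 kb, and the next peak lay 19.6 kb further on. This border, 69.3 kb from the 3' edge of the listed span, marks off 4.47% of the span. The stretch from the border to that edge, 69.3 kb long, is called the 3' block here. In it lay 48 of 63 peaks and 352 of 406 reads in replicate 1 (86.7% of reads), 3 of 4 peaks and 20 of 23 reads in replicate 2 (87.0%), but 19 of 88 peaks and 85 of 378 reads in replicate 3 (22.5%). The border was placed from the replicate 1 values, so its share there is a description. Replicate 2 had its reads mainly beyond the run on the 3' side, with 16 of 23 reads in 2 peaks between the run and the edge. Within the run itself lay 1 of its 4 peaks with 4 reads (17.4% of reads), and 18 of 88 peaks with 81 reads (21.4%) of replicate 3.

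Inside the 3' block the level was 478, 184 and 219 RPM in replicates 1, 2 and 3, and within the run alone 478, 36.9 and 209 RPM. Outside the block the level was 73.4, 27.7 and 756 RPM. Replicate 3 thus had its higher total from the part of PDE4D upstream of the block, while inside the block replicate 1 was highest.

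**Figure D2:**
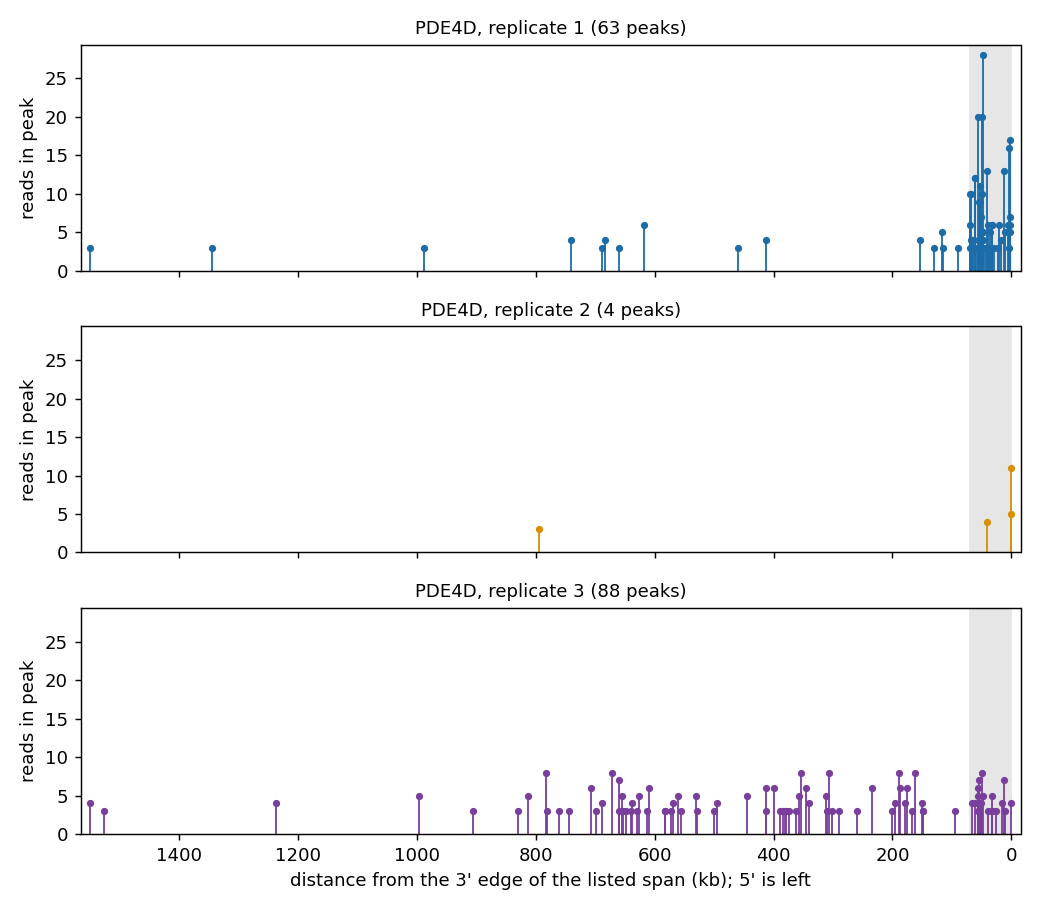
Each stem is 1 PDE4D peak, with its reads on the vertical axis and its distance in kb from the 3' edge of the listed span on the horizontal axis, 1 panel per replicate and the 5' side at the left. The grey band is the 3' block, the last 69.3 kb of the span, which holds 48 of 63, 3 of 4 and 19 of 88 peaks from the top panel to the bottom one.

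The peaks of replicate 1 were also larger inside the block, with a median of 5.5 reads against 3 outside it. Its highest peak, chr5:58312195-58312395 (-), had 28 reads, and all 13 of its peaks with 10 or more reads lay in the block. Replicate 3 had no PDE4D peak of that size. Its highest value of 8 reads was reached by 7 peaks, which lay between 49.9 and 783 kb from the 3' edge. In replicate 2 the highest peak, chr5:58265832-58265918 (-) with 11 reads, lay 0.66 kb from that edge, and neither replicate 1 nor replicate 3 had a peak there.

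The middle of the PDE4D reads was 49.7 kb from the 3' edge in replicate 1, 0.66 kb in replicate 2 and 354 kb in replicate 3. Within 50 kb of the edge lay 53.7% of the reads of replicate 1, 87.0% of replicate 2 and 12.7% of replicate 3. Within 500 kb the shares were 92.9%, 87.0% and 63.2%. Replicate 2 gives only 4 peaks, so its shares are coarse.

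**Figure D3:**
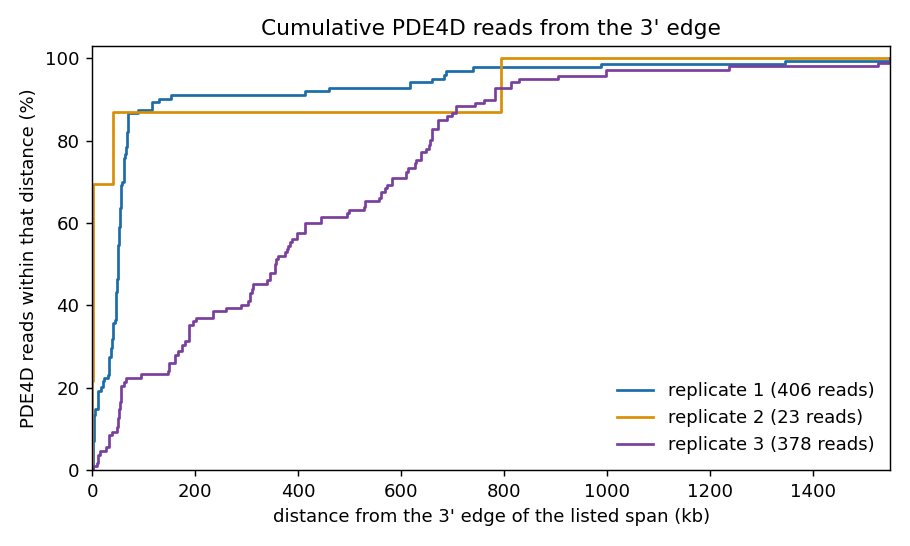
Percentage of PDE4D reads (vertical axis) that lie within a given distance in kb of the 3' edge of the listed span (horizontal axis), 1 line per replicate. Replicate 1 reaches 86.7% within 75 kb and replicate 2 reaches 87.0% within 50 kb, while replicate 3 climbs slowly to 63.2% at 500 kb.

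The running numbers of the same peaks describe the same contrast without the read counts and are not separate support for it. Within a gene ID they rise with position and skip values, with 0 exceptions to the rising order in the 3 lists. Up to the border of the block, replicate 1 had reached number 82 of a highest 112, replicate 2 number 11 of 38 and replicate 3 number 37 of 153. The next listed numbers beyond it were 84, 38 and 41. The numbers used up inside the block were thus 73.2 to 74.1% of all in replicate 1 and 24.2 to 26.1% in replicate 3. In replicate 2 the skipped numbers leave any share from 28.9 to 97.4% possible.

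The length of the block, but not the place of its border, can be set beside the RefSeq starts. The block reached 69.3 kb from the 3' edge of the listed span on hg19. On GRCh38, starts 7 and 8 were 39.6 kb apart, and the next start upstream, start 6, was 357 kb from start 8. The block is counted from the 3' edge of the listed span and these distances from start 8. How far start 8 lies from that edge was not measured, so the lengths do not place the border relative to any start. The starts upstream of start 6 were 587, 588, 894, 1373 and 1496 kb from start 8. Whether the border falls at start 7 was not tested, since no hg19 annotation was used here.

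Counted as peaks, 84.1% of PDE4D peaks lay in the last 10% of the span in replicate 1 (53 of 63, interval 72.7 to 92.1%) and 26.1% in replicate 3 (23 of 88, 17.3 to 36.6%). The difference was 58.0 percentage points, with rank 1 among 566 gene IDs with at least 20 peaks in both replicates. PDE4D was chosen for its reads at the 3' end, so this difference and its rank are descriptions that support nothing further. The median over the 566 gene IDs was 8.44% in replicate 1 and 8.76% in replicate 3, with a median difference of -0.41 points. PDE4B, the other member with enough peaks, had 2.56% and 3.28%, a difference of -0.71 points and rank 295. Weighted by reads the PDE4D difference was 65.2 points and ranked 1, and with the last 20% of the span it was 43.2 points and ranked 2. These values compare the libraries and rest on peaks that share a gene and a library.

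**Figure D4:**
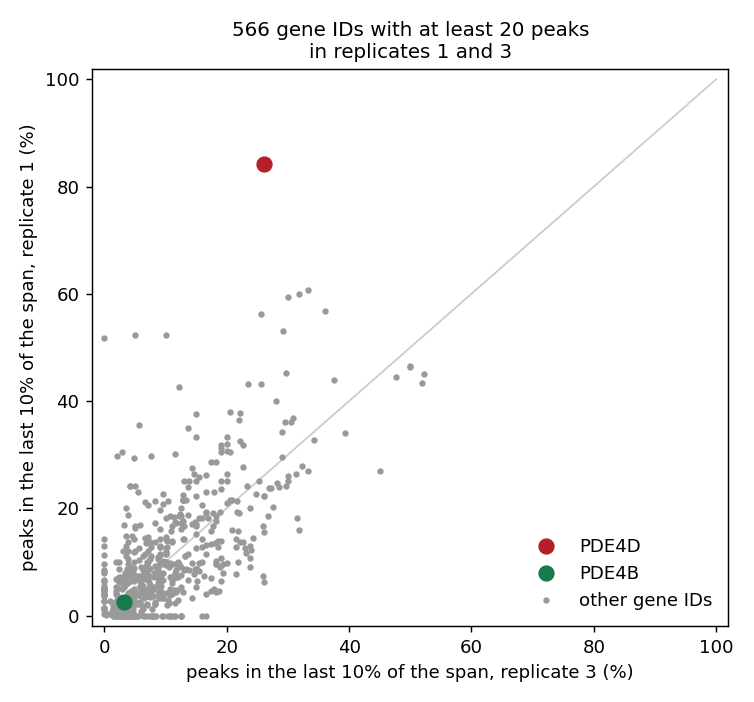
Each point is 1 of 566 gene IDs with at least 20 peaks in replicates 1 and 3, with the percentage of its peaks in the last 10% of its listed span in replicate 3 (horizontal axis) and replicate 1 (vertical axis), and a line of equal values. PDE4D lies farthest above the line at 84.1% and 26.1%, and PDE4B lies near the lower left corner at 2.56% and 3.28%.

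PDE4B reads lay mainly in the 5' part of its listed span in every replicate. That span was shorter than the distance between its outermost RefSeq starts, so its 5' edge need not be the 5' end of the gene. The last 10% held 3 of 244, 0 of 64 and 6 of 243 reads in the 3 replicates in order, while the first 10% held 77, 24 and 70 reads. The log2 ratio of 3' over 5' reads was -4.47, -5.61 and -3.44, a mean of -4.51 ± 1.09 (SD, n = 3). The first 50% of the span held 75.8%, 81.3% and 84.8% of the reads, and the replicates were close in this share. The listed peaks began within a few kb of each other, at chr1:66462059, chr1:66463932 and chr1:66460074 in replicates 1, 2 and 3.

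The only PDE4B locus with reads of all 3 replicates lay at this 5' side. It was 240 nt long, at chr1:66463848-66464087 (+), with 4 reads in replicate 1, 7 in replicate 2 and 12 in replicate 3. The peaks of replicates 1 and 2 did not overlap and were joined through that of replicate 3, and the inner stretches of at most 4 nt that the lists give for each peak lay up to 112 nt apart. The highest peaks of replicates 1 and 2 were elsewhere, at chr1:66489486-66489649 with 36 reads and chr1:66470146-66470198 with 10 reads, and no other replicate had a peak at either place.

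PDE3B had more reads at its 5' end than at its 3' end in each replicate, with most of those reads in 1 peak in replicate 2. The last 10% of its span held 4 of 114, 0 of 42 and 3 of 69 reads in replicates 1, 2 and 3, and the first 10% held 34, 31 and 19. The log2 ratio was -2.94, -5.98 and -2.48, a mean of -3.80 ± 1.90 (SD, n = 3). The first 50% of the span held 75.4% and 73.8% of the reads in replicates 1 and 2, but 39.1% in replicate 3. In replicate 2 the highest peak alone held 28 of these 31 reads, and without it 3 reads lay in the first 50% and 11 in the last 50%. In the outer 10% it then had 3 reads at the 5' end and 0 at the 3' end, and the mean log2 ratio was -2.74. The direction of replicate 3, and of replicate 2 without that peak, therefore depended on how much of the span was compared.

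The strongest PDE3B place was a 78 nt locus at chr11:14689416-14689493 (+), with 0 reads in replicate 1, 28 in replicate 2 and 8 in replicate 3. It was the highest PDE3B locus in both replicates that had it. The inner stretches of its peaks in replicates 2 and 3 lay 7 nt apart. In replicate 1 the highest PDE3B peak was at chr11:14735956-14736095 (+) with 16 reads, where the others had none.

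**Figure D5:**
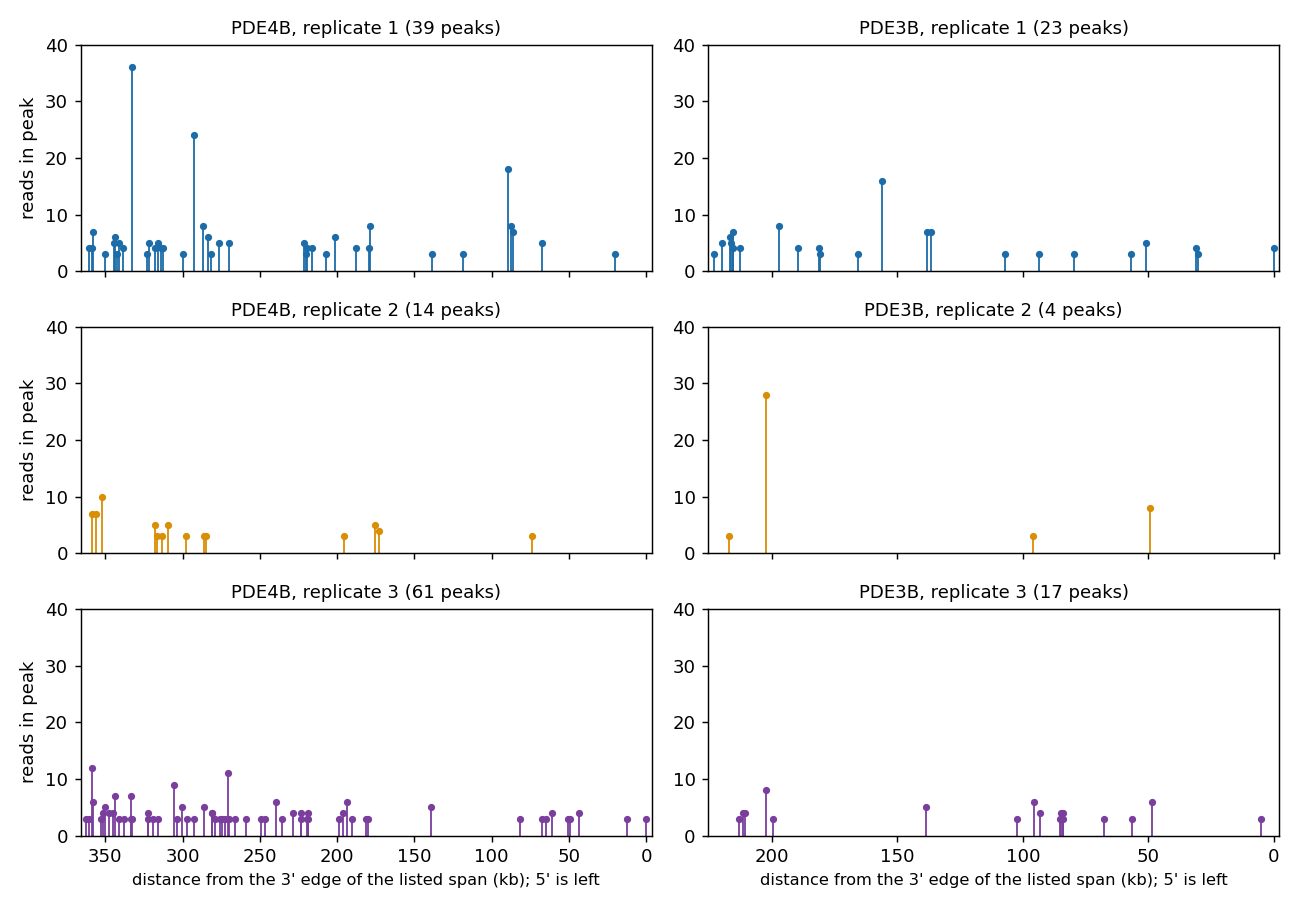
Peaks of PDE4B (left) and PDE3B (right), 1 row per replicate, with reads in each peak on the vertical axis and the distance in kb from the 3' edge of the listed span on the horizontal axis, 5' at the left. PDE4B peaks are denser at the 5' side in all 3 replicates, and the tall PDE3B peak of replicate 2 holds 28 of its 42 reads.

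The direction of the ends was the same in all 3 replicates for each of the 3 genes that could be compared. The direction of PDE4D was found in 26.6% of the 2435 gene IDs. That of PDE4B and PDE3B, more reads at the 5' end of the listed span in all 3 replicates, was found in 15.5%. The genes were chosen with such ratios known, so the count of 1 and 2 members is not read against these shares.

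PDE10A could not be described along its length. Its peaks in replicate 1, at chr6:166290939-166291006 and chr6:166387390-166387483 on the minus strand, had 4 reads each and lay 96.4 kb apart. The second of them was also listed under ENSG00000223414. Within that stretch, 3 other gene IDs had peaks on the same strand, in part at the same coordinates, with up to 7 peaks and 31 reads under 1 ID in replicate 3. Reads of this region can therefore stand under another ID, and the low PDE10A level holds for its own ID only.

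Exact positions were seldom shared between replicates. Overlapping peaks of a replicate were merged into clusters, and a cluster was shared if it overlapped one of another replicate on the same strand. PDE4D shared 10 of 63 clusters of replicate 1 (15.9%, interval 7.88 to 27.3%), 0 of 4 of replicate 2 and 10 of 88 of replicate 3 (11.4%, 5.59 to 19.9%). For PDE4B these were 8 of 39, 2 of 14 and 7 of 61, and for PDE3B 0 of 23, 1 of 4 and 1 of 17. Together the 4 genes had 14.2%, 13.6% and 10.8%, against 15.3%, 35.4% and 16.9% over all clusters of replicates 1, 2 and 3. The intervals of the 4 genes were 8.62 to 21.5%, 2.91 to 34.9% and 6.55 to 16.6% in replicates 1, 2 and 3. In replicate 2 they rest on 22 clusters, 14 of them from PDE4B. These intervals treat clusters as independent, though the clusters share a gene and a library. The overall share was not matched for reads per cluster, so the intervals are no test against it.

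For PDE4D the shared clusters lay mostly in the block. Inside it, 8 of 48 clusters of replicate 1 and 8 of 19 of replicate 3 were shared (16.7%, interval 7.48 to 30.2%, and 42.1%, 20.3 to 66.5%). Outside it these were 2 of 15 and 2 of 69 (13.3%, 1.66 to 40.5%, and 2.90%, 0.353 to 10.1%). The border was placed where clusters of replicate 1 were dense, which by itself raises the share of replicate 3 clusters that meet one, so nothing is read from the difference. Among the 10 shared loci, chr5:58320406-58320557 (-) had 20 reads in replicate 1 and 3 in replicate 3, and chr5:58315047-58315219 (-) had 10 and 8.

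The libraries also differed in the strand of their reads, which touches the levels. On the minus strand lay 48.8%, 50.6% and 63.2% of nuclear reads in replicates 1, 2 and 3. The ratio of replicate 3 over replicate 1 was 1.77 for PDE4D on the minus strand, and 1.89 for PDE4B and 1.15 for PDE3B on the plus strand. All nuclear reads gave 1.29 on the minus strand and 0.719 on the plus strand. Per 1000000 nuclear reads of its own strand, PDE4D had 1134, 431 and 1556 in replicates 1, 2 and 3, a ratio of 1.37. PDE4B had 650, 1227 and 1719, a ratio of 2.64, and PDE3B had 304, 805 and 488, a ratio of 1.61. Replicate 3 thus stayed above replicate 1 for the 3 genes on this scale, and the part of the strand difference in the levels was not tested.

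Among long gene regions, the one most like PDE4D in layout still differed from it in replicates 1 and 3. Likeness was the Pearson correlation over 30 shares, those of 10 parts of the span in 3 replicates, with 12 gene IDs that had at least 50 reads in every replicate and a listed span of at least 50% of that of PDE4D. The highest value was 0.70, for ENSG00000250349 at chrX:37215467-38545616 (+), which had 45.7%, 82.4% and 59.3% of its reads in the last 10% of its span, against 91.1%, 87.0% and 25.9% for PDE4D. Replicate 3 was thus above replicate 1 there and below it in PDE4D. The next were ENSG00000149256 at 0.33 and ENSG00000188641 at 0.13. The shares of a gene sum to a fixed total in each replicate and come from the same libraries, so these are descriptions. PDE4D itself had 23 reads in 4 peaks in replicate 2, below the minimum of 50, so its 10 shares there are coarse.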

How the data were processed

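The authors deposited 1 list of peaks per replicate, with 8 columns and no header, and per the submitters' processing notes the build was hg19 and FastQC, SAMtools, STAR and bedtools were used. Which peak caller and annotation were used is not given in the sources used here. Each peak carries a p-value that the authors deposited, always below 0.05. Here it served to leave out peaks above the median p in the alternative values. Other deposited columns were positions and the peak name, matched on the gene ID before the dot. The number at its end was read as reads, because it fell as p rose (Spearman rho -0.988, -0.973 and -0.964). The members and lists were chosen with earlier results of these data known. The comparison of PDE4D between replicates 1 and 3 with its minimum of 20 peaks, the distance windows and the 15 kb gap that sets the edge of the 3' block were chosen after the values had been seen.

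Python 3.11.15, pandas 2.3.3 and scipy 1.17.1 were used. A listed span reached from the lowest to the highest peak of a gene ID, replicates pooled, if it had 5 loci or more, and its ends were the outer 10%. Overlap meant at least 1 nt on the same strand. The end and overlap functions were tested on simulated data. Named loci were those present in all 3 replicates and the highest of each replicate. Of the 7 PDE4D peaks tied as highest in replicate 3, only that at chr5:58315047-58315219 was named. The shared PDE4D locus at chr5:58320406-58320557 was named in addition. The planned lists of other phosphodiesterases, cyclases, effectors, anchors and cell markers were not analysed here, because 0 gene IDs could be matched to a symbol. Promoters are those of RefSeq (GRCh38.p14).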

Additional observations from a re-analysis of the deposited data

How the results depend on the processing

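Of 72 alternative values, 61 moved by less than 1 SD of the replicates and 11 moved further. For the difference between replicates 1 and 3 the limit was 12.8 points, the mean of both arms of its Newcombe 95% interval. Among the mean end ratios 0 changed sign, while levels and cluster shares cannot be negative. In replicate 3, though, the last 50% of the PDE3B span held 60.9% of its reads, so the ratio of that replicate changed direction there. The mean of 3 replicates shifts by less than 1 SD when any 1 is left out. The levels without 1 replicate, and apart from shifted span edges the end ratios, were therefore bound to count among the 61. So were the end ratios without peaks under several gene IDs, because none of their peaks was listed under a second ID. With the first and last 50% of the span the mean log2 end ratio was 3.69 for PDE4D, -2.06 for PDE4B and -0.81 for PDE3B. With each peak counted once it was 3.73 for PDE4D and -2.75 for PDE4B. Leaving out 1 replicate gave 4.54 to 6.04 for PDE4D, -5.04 to -3.95 for PDE4B and -4.46 to -2.71 for PDE3B. Mean levels then ran from 382 to 763 RPM for PDE4D, 461 to 608 for PDE4B, 166 to 283 for PDE3B and 0 to 5.43 for PDE10A. The mean share of clusters found in another replicate was 9.08% for PDE4D and ran from 0 to 13.6% when 1 replicate was left out, 15.4% for PDE4B with 4.39 to 14.7%, and 10.3% for PDE3B with 0 to 15.4%. It was 25.0% for PDE3B when peaks above the median p were left out. Only 1 PDE3B locus was shared between replicates, and replicate 2 had 4 PDE3B peaks before that filter. The difference between replicates 1 and 3 in PDE4D was 43.2 points with the last 20% of the span, and its alternatives, like leaving out the highest PDE3B peak of replicate 2, were chosen after the data had been seen. Leaving out 1 replicate removes a partner for overlap, so the cluster share of each remaining replicate could only stay or fall. The 10 PDE4D loci shared between replicates had no reads in replicate 2, so the share without replicate 1 or 3 had to be 0. The cause of the other moves was not tested. No paired analysis was possible because there is 1 group. Replicate 2 held 4 PDE4D and 4 PDE3B peaks, which limits each share taken from it, and no control library shows what unbound RNA would give.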
